A study of Danio rerio with 6 samples.

Results

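The genes described here are 10 protein-coding genes of the zebrafish mitochondrial chromosome. They were taken by their Ensembl identifiers and are 10 of the 32520 genes in the count table. They include 7 subunits of respiratory complex I: mt-nd1 (ENSDARG00000063895), mt-nd2 (ENSDARG00000063899), mt-nd3 (ENSDARG00000063914), mt-nd4l (ENSDARG00000063916), mt-nd4 (ENSDARG00000063917), mt-nd5 (ENSDARG00000063921) and mt-nd6 (ENSDARG00000063922). The other 3 encode subunits of complex IV: mt-co1 (ENSDARG00000063905), mt-co2 (ENSDARG00000063908) and mt-co3 (ENSDARG00000063912). For all 10, the gene name table used here pairs the identifier with the same symbol, in capitals for all but mt-nd4l. The table holds no positions of the GRCz11 build, so coordinates are not given.

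The libraries came from whole bodies of juvenile zebrafish of the AB strain, sampled after 32 days of exposure that began at fertilization. EM-juveniles were kept in 10 µg/L exemestane (EM), a steroid that blocks aromatase, by which androgens become estrogens. Control juveniles received only the solvent, dimethyl sulfoxide (DMSO), at 10 µL/L, and the EM water held the solvent too. Each group had 3 libraries, and each library pooled 25 fish from 1 tank, so tissues are mixed in every value. The sexes of the pooled fish are not given. The study proposes that EM turned juveniles towards male, so a difference in sex between the pools cannot be told apart from the exposure.

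Complex I takes electrons from NADH and passes them to ubiquinone, and complex IV hands electrons from cytochrome c to oxygen. Both pump protons across the inner mitochondrial membrane, and the gradient drives ATP synthase. In vertebrates the core membrane subunits of complex I and the catalytic core of complex IV are encoded in the mitochondrial DNA, while most other subunits come from nuclear genes. The mitochondrial chromosome is transcribed from both strands into long precursors that are then cut. mt-nd6 lies on the opposite strand from the other 9 genes, next to mt-nd5, and comes from the other precursor. Mitochondrial messages are abundant in tissues with high energy demand such as muscle.

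The total count ranged from 4057579 to 7804654 in EM-juveniles and from 3169530 to 7324337 in control juveniles. Control replicate 2 had the fewest counts and stood apart from the other 5 libraries, with 21182 genes detected against 24418 to 24966. EM replicate 1 also differed from EM replicates 2 and 3 in the results on mt-nd6. Values are therefore given with and without these libraries where a result rests on them.

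The share of all counts taken by the 10 genes together was examined first, to see whether mitochondrial messages were more or less abundant after exposure. The 10 genes held 2.33%, 2.94% and 2.88% of the counts in EM replicates 1, 2 and 3, against 3.09%, 6.62% and 2.31% in control replicates 1, 2 and 3. The 95% Wilson interval of the largest of these shares was 6.59 to 6.65%. Control replicate 2 had more than any other library, and the other 5 libraries lay within a 1.34-fold range in which the groups overlapped. The mean was 2.72 ± 0.336% in EM-juveniles and 4.00 ± 2.30% in control juveniles (SD, n = 3 each). The difference of -1.29 percentage points was smaller than the spread between the control libraries (two-sided exact permutation test over libraries, p = 0.5, where 0.1 is the smallest p possible with 3 against 3). Without control replicate 2, the control mean was 2.70% and the difference was 0.0206 percentage points, in the other direction. In pooled whole bodies, fewer mitochondria-rich cells and less mitochondrial RNA per cell cannot be told apart.

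The counts themselves followed the library totals only loosely. The summed count of the 10 genes was 181926, 122698 and 117037 in EM replicates 1, 2 and 3, against 185906, 209762 and 168873 in control replicates 1, 2 and 3. Control replicate 2 thus gave the highest summed count from the lowest total. The totals spanned a 2.46-fold range over the 6 libraries and the summed counts a 1.79-fold range.

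**Figure D1:**
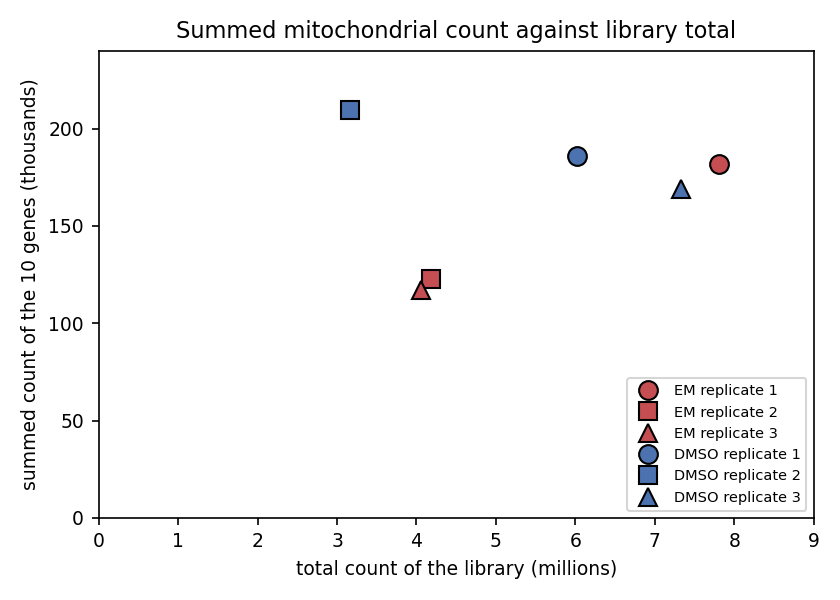
Summed count of the 10 genes (in units of 1000) against the total count of the library, 1 point for each of the 6 libraries, with EM in red and DMSO in blue. Control replicate 2 sits at the top left, with 209762 counts of the 10 genes in a library of 3169530 counts, while EM replicates 2 and 3 sit lowest.

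Each gene was then compared between the groups with DESeq2, fitted on the whole table. Of 23966 genes that received an adjusted p-value, 260 had an adjusted p-value under 0.05 in either direction, or 1.08%. None of the 10 mitochondrial genes was among them. Of the 10, 1 had an unadjusted p-value under 0.05, which was mt-nd6, beside 6.98% of all genes tested. mt-nd6 was also the 1 gene of the 10 under that threshold with the edgeR quasi-likelihood test, beside 3.94% of 19264 genes tested, and with limma voom, beside 8.36%. A count of 1 in 10 is near these shares. The edgeR test called 0 genes in the whole table at an adjusted p-value under 0.05, so its lack of calls says nothing of the 10 genes, and the 260 DESeq2 calls depend on the tool. Normalised read counts, which are counts divided by the DESeq2 size factor of the library, overlapped between the groups for all 10 genes. Over all tested genes the groups did not overlap in 11.3%.

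For 9 of the 10 genes, all but mt-nd6, the estimate was lower in EM-juveniles. Their log2 fold changes ran from -1.18 to -0.55, with a median of -1.04, beside a median of 0.0009 over all genes tested. The adjusted p-values of these 9 genes ran from 0.723 to 0.997 (DESeq2). Control replicate 2 had the highest normalised read count in each of the 9 genes. Its DESeq2 size factor, 0.404, was low even for its total of 3169530, against 0.893 in EM replicate 3 with a total of 4057579. Its normalised read counts were thus raised beyond its shares. The group means lay closer as shares. For mt-co1, with the largest fold change, they were 0.997% in EM-juveniles and 1.60% in control juveniles. For mt-nd4l, with the smallest, they were 0.0119% and 0.0126%. Without control replicate 2 the log2 fold changes ran from -0.17 to 0.29, with 5 below 0 and 4 above 0.

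Among the complex I genes, mt-nd1 encodes the subunit at the junction of the membrane arm with the matrix arm. Its normalised read count was 8369, 9802 and 11034.5 in EM replicates 1, 2 and 3, against 12225, 39458 and 8090 in control replicates 1, 2 and 3. The groups differed by -1.03 ± 0.61 on the log2 scale (SE, DESeq2, adjusted p = 0.821). Only control replicates 1 and 2 lay above all EM libraries, and control replicate 3 lay below them all. The fold change was -0.05 ± 0.28 (SE) on the log2 scale without control replicate 2.

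mt-nd2, mt-nd4 and mt-nd5 encode the antiporter-like subunits of the membrane arm, through which protons are thought to move. For mt-nd2, normalised read counts were 7883, 13437 and 14581 in EM replicates 1, 2 and 3, against 14188, 47570.1 and 7379 in control replicates 1, 2 and 3. EM replicate 1 and control replicate 3 were the pair of low libraries. mt-nd4 had 10635.5, 15533.5 and 15477 in EM replicates 1, 2 and 3, against 17614, 55669.8 and 9978 in control replicates 1, 2 and 3. mt-nd5 had 11340.4, 14853 and 15946 in the EM libraries, against 19440.7, 55789 and 11609 in the control libraries, in the same order of replicates. EM replicate 1 and control replicate 3 were again the lowest libraries for both genes. On the log2 scale mt-nd2 differed by -0.945 ± 0.685, mt-nd4 by -0.999 ± 0.642 and mt-nd5 by -1.04 ± 0.60 (SE), where DESeq2 gave adjusted p-values of 0.919, 0.860 and 0.806. Without control replicate 2 these became 0.17, 0.02 and -0.13, so that the first and second of them turned direction.

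mt-nd3 and mt-nd4l are small membrane subunits of complex I and had the lowest counts among the 9 genes. For mt-nd3, raw counts were 1487, 939 and 875 in EM replicates 1, 2 and 3, against 1169, 1902 and 1308 in control replicates 1, 2 and 3. mt-nd4l had 748, 523 and 555 counts in the EM libraries, against 639, 608 and 596 in the control libraries. The raw counts of mt-nd4l varied least of the 10 genes, over a 1.43-fold range. On the log2 scale mt-nd3 differed by -1.17 ± 0.69 and mt-nd4l by -0.55 ± 0.57 (SE, DESeq2, adjusted p = 0.815 and 0.997), and without control replicate 2 both lay above 0, at 0.12 and 0.29. mt-nd4l and mt-nd4 share a few bases on the same strand, and how reads over both genes were assigned is not given in the sources used here, so the level of mt-nd4l in particular is uncertain.

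**Figure D2:**
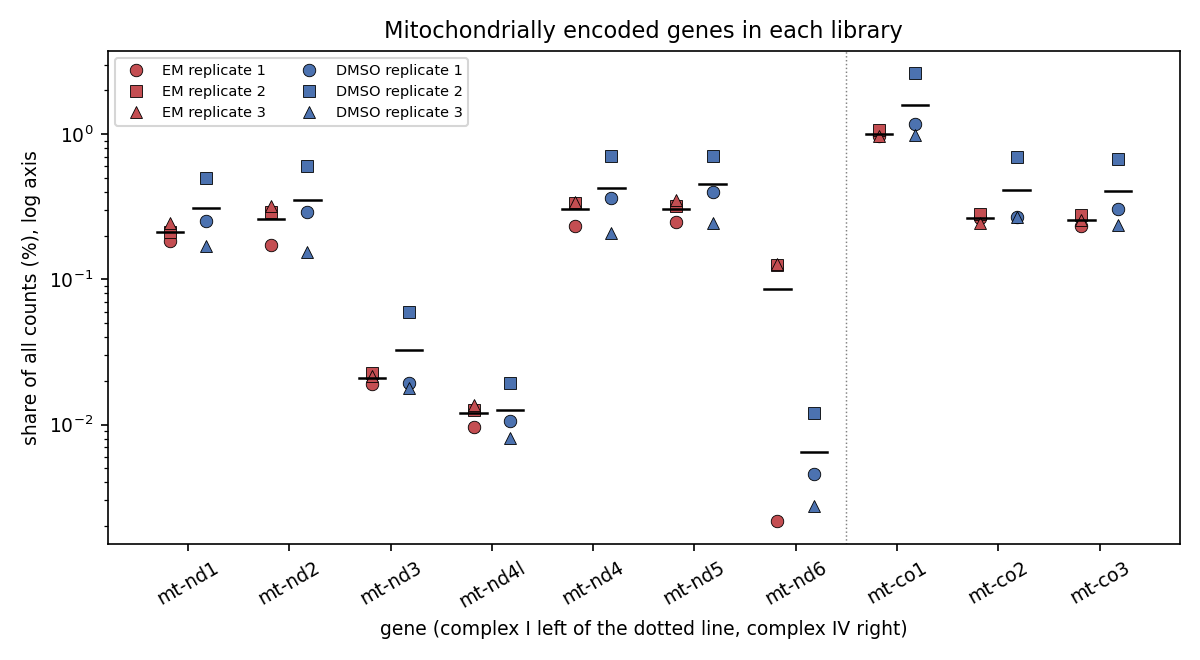
Share of all counts (%, log axis) of each of the 10 genes in each library, EM in red left of DMSO in blue, with a different symbol for each replicate and a black line at the group mean. Control replicate 2 (blue square) is the highest library for 9 genes, while EM replicates 2 and 3 are highest for mt-nd6, at 0.125% and 0.129%.

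The 3 complex IV genes encode its catalytic core. mt-co1 carries the site where oxygen is reduced, mt-co2 receives electrons from cytochrome c, and mt-co3 is the remaining core subunit. mt-co1 took 0.966%, 1.06% and 0.965% of all counts in EM replicates 1, 2 and 3, against 1.17%, 2.63% and 0.990% in control replicates 1, 2 and 3. The EM libraries were close to each other and to control replicate 3, and control replicate 2 was far above. Its normalised read count was 45708 ± 2990 in EM-juveniles and 103365 ± 89435 in control juveniles (SD, n = 3 each). This is a difference of -1.18 ± 0.61 on the log2 scale (SE, DESeq2, adjusted p = 0.723), which was -0.17 ± 0.20 (SE) without control replicate 2.

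mt-co2 held 0.265%, 0.280% and 0.243% of counts in EM replicates 1, 2 and 3, against 0.270%, 0.697% and 0.270% in control replicates 1, 2 and 3. mt-co3 held 0.232%, 0.279% and 0.256% in the EM libraries, against 0.306%, 0.672% and 0.237% in the control libraries. Apart from control replicate 2, the values of the groups overlapped for both genes. Both genes differed by -1.16 ± 0.62 on the log2 scale (SE, DESeq2, adjusted p = 0.755 for mt-co2 and 0.743 for mt-co3), and these estimates were -0.09 and -0.14 without control replicate 2.

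mt-nd6, the complex I subunit read from the opposite strand, differed from the other 9 genes. Its raw count was 168, 5233 and 5214 in EM replicates 1, 2 and 3, against 276, 381 and 201 in control replicates 1, 2 and 3. EM replicates 2 and 3 were far above every other library, while EM replicate 1 had the fewest counts of all although its total was the largest. As a share of all counts, mt-nd6 held 0.00215% in EM replicate 1 (95% Wilson interval 0.00185 to 0.00250%), 0.125% in EM replicate 2 (0.122 to 0.129%) and 0.129% in EM replicate 3 (0.125 to 0.132%). In control replicates 1, 2 and 3 the share was 0.00458% (0.004075 to 0.00516%), 0.0120% (0.0109 to 0.0133%) and 0.00274% (0.00239 to 0.00315%). The normalised read count was 98.4, 5806 and 5836 in EM replicates 1, 2 and 3, against 222, 943.7 and 130.5 in control replicates 1, 2 and 3. The lower of EM replicates 2 and 3 was 6.15-fold above control replicate 2, the highest of the other libraries, and EM replicate 1 lay below all 3 controls.

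mt-nd6 differed by 3.18 ± 1.12 on the log2 scale (SE, DESeq2, adjusted p = 0.236) and did not pass the threshold, and its normalised read count was 3913 ± 3304 in EM-juveniles and 432 ± 445 in control juveniles (SD, n = 3 each). Its unadjusted p-value was 0.00453 with DESeq2, 0.0428 with the edgeR quasi-likelihood test and 0.0263 with voom, in models fitted across all genes. When EM replicate 1 was left out, mt-nd6 passed the threshold, at 3.75 ± 0.84 on the log2 scale (SE, DESeq2, adjusted p = 0.000658). In that fit 1.74% of the 23292 genes tested were called higher in EM-juveniles. Leaving out any other library kept the adjusted p-value at 0.230 or above. The library left out was chosen for its low value, so this fit describes EM replicates 2 and 3 against the controls and not the exposure.

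**Figure D3:**
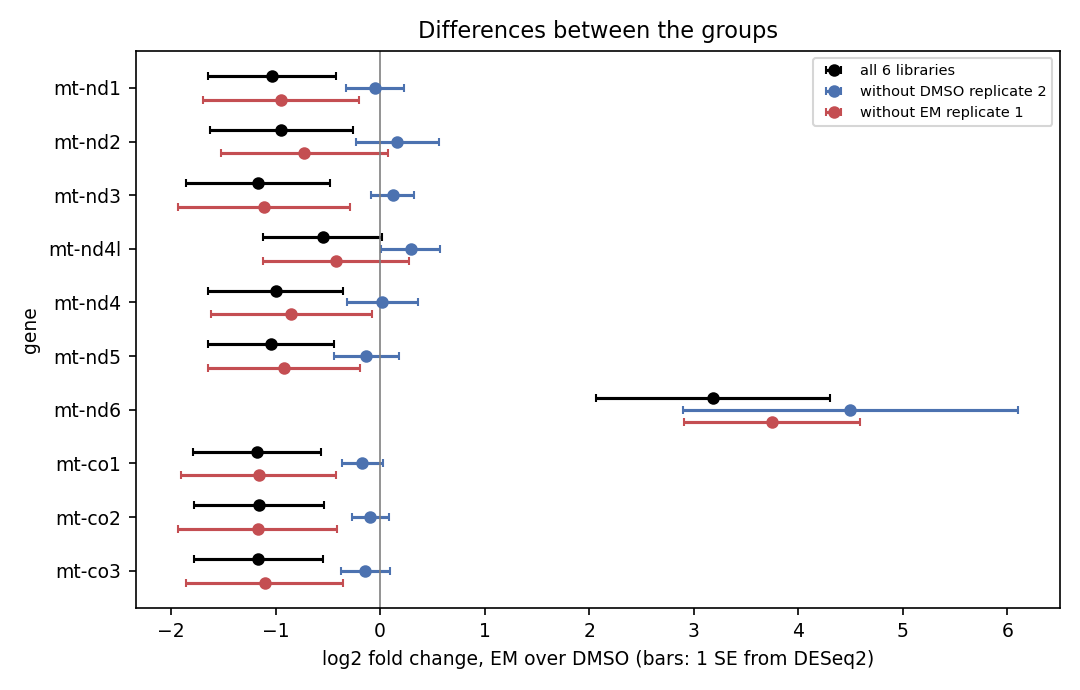
DESeq2 log2 fold change of EM over DMSO for each of the 10 genes, with bars of 1 SE, from all 6 libraries (black), without control replicate 2 (blue) and without EM replicate 1 (red). The 9 genes other than mt-nd6 lie between -1.18 and -0.55 with all libraries and between -0.17 and 0.29 without control replicate 2, while mt-nd6 lies above 0 in each fit shown.

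Ratios within a library do not depend on how libraries are scaled against each other, so the composition of the mitochondrial counts was examined next. For each 1000 counts of the other 9 genes, mt-nd6 had 0.924, 44.5 and 46.6 in EM replicates 1, 2 and 3, against 1.49, 1.82 and 1.19 in control replicates 1, 2 and 3. EM replicates 2 and 3 were nearly equal, and EM replicate 1 was again the lowest library. Against its neighbour mt-nd5 alone, mt-nd6 had 8.67, 391 and 366 counts for each 1000 in EM replicates 1, 2 and 3, against 11.4, 16.9 and 11.24 in control replicates 1, 2 and 3. mt-nd6 made up 2.94 ± 2.47% of the counts of the 10 genes in EM-juveniles and 0.150 ± 0.0313% in control juveniles (SD, n = 3 each), a difference of 2.79 percentage points (two-sided exact permutation test, p = 0.4, smallest possible 0.1). The 9 other genes did not follow this change: without mt-nd6 they held 2.33%, 2.81% and 2.76% of all counts in EM replicates 1, 2 and 3, within the 2.303% to 6.61% range of the control libraries.

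The balance of complex IV to complex I counts also varied between libraries. The ratio was 1.69, 1.23 and 1.03 in EM replicates 1, 2 and 3, against 1.296, 1.53 and 1.85 in control replicates 1, 2 and 3. EM replicates 2 and 3 were the lowest libraries, and EM replicate 1 lay among the controls. The mean of the log2 ratio was 0.37 ± 0.36 in EM-juveniles and 0.62 ± 0.26 in control juveniles (SD, n = 3 each), a difference of -0.26 (two-sided exact permutation test, p = 0.4, smallest possible 0.1). Part of this difference is mt-nd6 itself: with mt-nd6 left out of complex I, a choice made after seeing the data, the mean log2 ratio was 0.46 ± 0.29 in EM-juveniles and 0.63 ± 0.26 in control juveniles (SD, n = 3 each), and the difference of the log2 ratio was -0.17 (p = 0.5, same exact permutation test). The ratio of mt-nd2 to mt-co1 counts was 0.179, 0.273 and 0.333 in EM replicates 1, 2 and 3, against 0.251, 0.230 and 0.157 in control replicates 1, 2 and 3, and the groups overlapped.

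**Figure D4:**
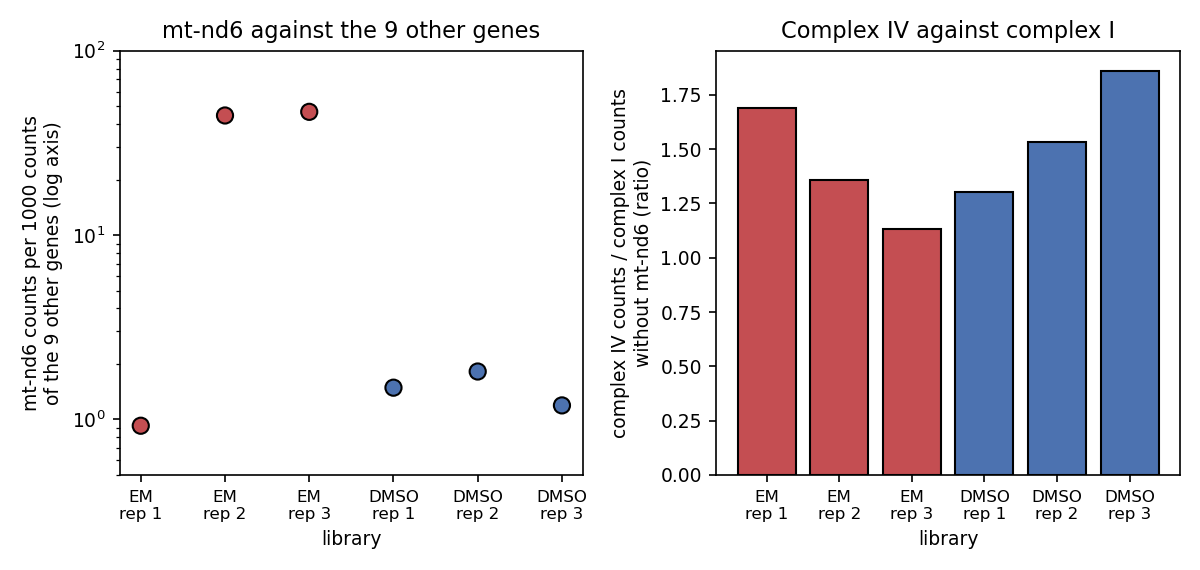
Ratios of counts within each library, EM in red left of DMSO in blue. Left, mt-nd6 counts for each 1000 counts of the other 9 genes on a log axis, at 44.5 and 46.6 in EM replicates 2 and 3 and at 0.924 to 1.82 in the other 4 libraries. Right, complex IV counts divided by complex I counts without mt-nd6, from 1.13 to 1.69 in EM-juveniles and up to 1.86 in control juveniles.

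A further gene on the mitochondrial chromosome shared the pattern of mt-nd6. ENSDARG00000081369, which the gene lists of the study place on that chromosome and which has no other name in the sources used here, gave 22, 1883 and 1561 counts in EM replicates 1, 2 and 3, against 43, 11 and 41 in control replicates 1, 2 and 3. It differed by 5.44 ± 1.12 on the log2 scale (SE, DESeq2, adjusted p = 0.00037), while the edgeR quasi-likelihood test gave 0.916 and voom 0.637. The gene lists of the study hold genes that it called different between groups, so this call is not independent of how the gene was found. Beyond the 10 genes, this gene and the protein-coding genes given below, no gene of that chromosome was examined. Without EM replicate 1 the log2 fold change of ENSDARG00000081369 was 6.01 (DESeq2, adjusted p = 1.01e-31). That library was again left out for its low value, so this fit describes EM replicates 2 and 3 against the controls and not the exposure. The call was lost without control replicate 2 (5.42, adjusted p = 0.142), without control replicate 3 (5.37, adjusted p = 0.109) and with replicate numbers as a block (4.598, adjusted p = 0.315), all with DESeq2. In the whole table, 319 genes had at least 10 counts in EM replicates 2 and 3 and lay there at least 8-fold above every other library. ENSDARG00000081369 was among them and mt-nd6 was not, because of its level in control replicate 2. A count table does not hold the strand of single reads, so whether the reads behind these counts came from the annotated strand was not tested.

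The remaining protein-coding genes of the mitochondrial chromosome moved with the 9 genes or could not be measured. mt-cyb, the subunit of complex III encoded next to mt-nd6 on the strand of the other genes, had normalised read counts of 16819, 20461 and 20252.5 in EM replicates 1, 2 and 3, against 23567, 83578 and 16165 in control replicates 1, 2 and 3. Its log2 fold change was -1.10 ± 0.63 (SE) and that of mt-atp6, a membrane subunit of ATP synthase, was -0.96 ± 0.61 (SE), with DESeq2 adjusted p-values of 0.801 and 0.847. Control replicate 2 was the highest library in both. mt-atp8, a short ATP synthase gene that overlaps mt-atp6, had 6, 5 and 3 counts in the EM libraries and 0, 0 and 5 in the control libraries, which is too few to compare.

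Nuclear genes of the same complexes were matched by symbol. Of the 42 genes with a symbol of a nuclear complex I subunit, 41 were tested and 0 passed the DESeq2 threshold in either direction. Their median log2 fold change was -0.16, and 28 of them had their highest normalised read count in control replicate 2. The largest in level in this list were ndufv1, a subunit of the NADH-binding module, at -0.50 ± 0.34, and ndufs8, an iron-sulfur subunit, at -0.37 ± 0.43. Next was ndufa4 at -0.18 ± 0.26 (log2 fold change and SE for all 3), which is in the list by its symbol alone. Of 21 genes for nuclear complex IV subunits, all were tested and 0 passed, with a median of -0.26, and 16 were highest in control replicate 2. The summed normalised read count of the complex IV genes was 7265, 8291 and 8733 in EM replicates 1, 2 and 3, against 8984, 12964 and 7163 in control replicates 1, 2 and 3. On this scale the nuclear messages too were highest in control replicate 2, by less than the mitochondrial ones. As a share of all counts they were not, whereas the 9 mitochondrial genes were highest in control replicate 2 on both scales. The nuclear complex IV genes held 0.159% to 0.192% in EM-juveniles and 0.186%, 0.165% and 0.151% in control replicates 1, 2 and 3. The nuclear complex I genes held 0.232% to 0.291% in EM-juveniles and 0.281%, 0.213% and 0.207% in the control libraries. How many of all genes were highest in control replicate 2 was not counted. cox4i1, a nuclear complex IV subunit, had the highest mean of its list and differed by -0.26 ± 0.47 (log2 fold change and SE).

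Genes that maintain, translate or accompany mitochondrial messages gave 0 calls as well. None of 8 complex I assembly factors, 3 nuclear ATP synthase subunits, 14 mitochondrial ribosomal proteins, 8 genes of mitochondrial RNA and translation and 12 import proteins and chaperones passed the DESeq2 threshold. Their median log2 fold changes were -0.30, -0.05, 0.02, 0.10 and -0.04. lrpprc and slirp encode the partners that stabilise mitochondrial messages in mammals, and their log2 fold changes were 0.14 ± 0.42 and 0.15 ± 0.45 (SE). The normalised read count of lrpprc was 427, 414 and 410 in EM replicates 1, 2 and 3, against 534, 213 and 380 in control replicates 1, 2 and 3. Control replicate 2 was thus the lowest library for lrpprc and the highest for the 9 mitochondrial genes. slirp did not share this, with 109 in control replicate 2 and its lowest value, 74.7, in control replicate 3. Of the 8 genes of mitochondrial RNA and translation, 3 were lowest and 1 was highest in control replicate 2.

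The sum of the fast muscle markers was also highest in control replicate 2, although it did not follow the mitochondrial genes among the EM libraries. The 3 markers actn3b, tnni2a.3 and myhc4, which encode proteins of the contractile apparatus, together took 0.573%, 0.269% and 0.245% of counts in EM replicates 1, 2 and 3, against 1.21%, 1.35% and 0.758% in control replicates 1, 2 and 3. In the summed share the EM libraries lay below all controls. By normalised read count, control replicate 2 was the highest library for each of the 3 markers. By share this did not hold for actn3b, with 4006 of 3169530 counts in control replicate 2 and 9398 of 6020241 in control replicate 1. Of the 3, 2 were called lower by DESeq2, tnni2a.3 at -2.31 ± 0.63 and myhc4 at -2.34 ± 0.65 (log2 fold change and SE), and both stand in a gene list that the study drew from these samples. The summed share of the 3 liver markers, most of it apobb.1 in every library, was instead lowest in control replicate 2, with 0.543% to 0.680% of counts in EM-juveniles and 0.772%, 0.138% and 0.531% in control replicates 1, 2 and 3. Of the other marker sets, the summed share of lens was also highest in control replicate 2, at 0.0172%. The shares of smooth muscle (0.00905%), exocrine pancreas (0.00928%), epidermis and epithelium (0.204%) and bone and connective tissue (0.670%) were lowest there. The erythrocyte markers hbae1.1 and hbae1.3 had 1 and 0 counts in control replicate 2 and 0 and 2 in control replicate 1, too few to rank. The part of these tissues in the level of the mitochondrial genes was not tested. Of 6 oocyte markers, 4 were called lower in EM-juveniles, and the summed share of the 6 was at most 0.01997% in any library. Other markers were called higher: 2 of 6 for epidermis and epithelium and both of the 2 for erythrocytes. The erythrocyte markers had at most 7 counts in any control library, and the groups overlapped for hbae1.3. Of 4 lens markers, 1 was called higher and 1 lower. Markers of smooth muscle, bone and connective tissue and exocrine pancreas gave 0 calls. Of the 3 liver markers only apobb.1 received an adjusted p-value, and it was not called. The others, vtg2 and vtg3, could not be called. They had 5378 and 1012 counts in control replicate 1 and at most 5 in any other library. Over all 23966 genes tested, DESeq2 called 159 lower and 101 higher. All markers were chosen from symbols in the gene lists of the study, which names zar1 as higher in these control juveniles. The calls of markers are therefore not independent of the study.

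The genes with the most similar pattern were sought among 8359 named genes with a mean normalised read count of at least 100. Pearson's r with the sum of the 10 genes, on log2 normalised read counts over the 6 libraries, was 0.999 for mt-cyb, 0.999 for cnbpb, which encodes a nucleic acid binding zinc finger protein, and 0.999 for twf1, which encodes the actin-binding protein twinfilin. All share 1 feature with the mitochondrial genes, a high value in control replicate 2. For cnbpb it was 3406 there, against 766 to 940 in EM-juveniles and 725 and 1013 in the other control libraries. These values describe 6 libraries and rest on that library.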

How the data were processed

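Stranded mRNA libraries were sequenced from 6 pools of juveniles, 3 for each group, with groups and replicate numbers taken from the sample titles. The authors aligned reads to the zebrafish genome (GRCz11) with HISAT2 2.0.5, removed duplicate reads with SAMtools 1.5 and counted reads over exons on the reverse strand with HTSeq 0.9.1, with versions from the submitters' processing notes. The deposited values are raw counts for 32520 genes in 6 libraries, without normalisation. Duplicate removal limits the count that an abundant message can reach, so the 10 mitochondrial genes may be compressed between libraries, and nuclear copies of mitochondrial sequence can take or give reads. Neither effect was examined.

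Groups were compared by the Wald test (two-sided) in DESeq2 1.42.0 under R 4.3.3, the tool of the study, on all genes with at least 1 count, with median-of-ratios size factors, independent filtering and Benjamini-Hochberg adjustment. Genes under an adjusted p-value of 0.05 were called. Alternatives were the quasi-likelihood test of edgeR 4.0.16, voom from limma 3.58.1 using quality weights for each library, TMM factors, size factors without mitochondrial genes, a minimum of 10 counts in 3 libraries, no independent filtering, a replicate block and each library left out in turn. Shares and ratios were compared with two-sided exact permutation tests over libraries. The DESeq2 and edgeR fits were tested on 1 set of simulated counts, drawn for each gene on its own with its DESeq2 spread. No simulated library departed over many genes together, as control replicate 2 did, so the simulation does not cover such libraries. In it the median signed error of the fold changes was small with both tools. As many increases as decreases were put in, so this median cannot show whether estimates were too small in size in both directions. DESeq2 made more false calls than its threshold allows and edgeR recovered no changed gene, so DESeq2 calls are read with that limit. Wilson intervals are at 95% and describe counting error alone, because each is computed within 1 library. Reads here carry no molecular identifier. Likeness was computed on log2 values with a pseudocount of 1. Each library is 1 tank, and p-values set the difference between groups against the spread between these tanks. Same-group libraries differed by more than sampling noise.

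The text names all 10 genes, the genes of the pathway lists that passed the test with up to 3 others of the highest level for the nuclear complexes, and the 3 most similar genes. Gene lists were matched through the gene lists of the study and a gene name table that holds 29201 of the 32520 identifiers. The genes and lists were chosen with earlier results of these data known. No columns of per-sample values were left unused, and sequences were not used here.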

Additional observations from a re-analysis of the deposited data

How the results depend on the processing

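Across the alternatives, 0 of the 10 mitochondrial genes passed the threshold in any fit with all 6 libraries, and 1 (mt-nd6) passed without EM replicate 1. Over the fits that left out 1 library each, the number of the 10 genes that passed ran from 0 to 1. Of 130 fold changes of the 10 genes under the alternatives, 123 kept their direction and side of the threshold, 6 turned direction and 1, that of mt-nd6 without EM replicate 1, became a call. With each library left out in turn, mt-nd2 ran from -1.37 to 0.17, mt-nd3 from -1.55 to 0.12, mt-nd4l from -0.89 to 0.29 and mt-nd4 from -1.40 to 0.023, each above 0 only without control replicate 2. The others that turned were mt-nd3 (0.02) and mt-nd4l (0.18) with voom and sample quality weights. In that fit, on all 6 libraries, the 9 genes other than mt-nd6 ran from -0.29 to 0.18. With DESeq2 on the same libraries they ran from -1.18 to -0.55, so their size depended on the tool. Over all alternatives the log2 fold change of mt-nd6 ran from 2.44 to 4.50.

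The difference in the share of counts was reversed without control replicate 2 for the 10 genes (0.0206 percentage points) and for the 7 complex I genes (0.125). Over the fits that left out 1 library it ran from -2.14 to 0.0206 and from -0.781 to 0.125 percentage points. The number of genes called in the whole table, 260, became 0 with the edgeR quasi-likelihood test (759 at an unadjusted p-value under 0.05), 93 with voom and 90 with the minimum of 10 counts in 3 libraries. Leaving out libraries in turn gave 126 to 542. The cause of these changes was not tested. At an unadjusted p-value under 0.05, DESeq2 gave 5 of the 10 genes without control replicate 1, where 7.92% of all genes tested were under it. It gave 8 without control replicate 3, where 14.1% were, against 1 with all libraries, where 6.98% were. These 8 were lower in EM-juveniles and did not include mt-nd6 (unadjusted p = 0.102, DESeq2). The 5 without control replicate 1 did include mt-nd6, which was higher in EM-juveniles (unadjusted p = 0.0239, DESeq2). Why these counts rose was not tested. In the fits without control replicates 1 and 3, the lowest DESeq2 adjusted p-values of the 10 genes were 0.495 and 0.181.

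When replicate numbers entered the fit as a block, 174 genes of the table and 0 of the 10 were called, and mt-nd6 had a log2 fold change of 2.44 and a DESeq2 adjusted p-value of 0.253. Same-numbered libraries come from different tanks, and their deviations from the group means correlated at -0.00489, 0.161 and -0.181 for replicates 1, 2 and 3. The sample titles do not say whether equal numbers pair the samples. With 3 libraries a group these correlations cannot decide it. The depth allowed shares of single genes to be read to within at most 0.0176 percentage points, and with 3 libraries a group the spread between libraries sets the limit.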
